A study of Homo sapiens with 6 samples.

Results

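Kinesins are motor proteins that use ATP to walk along or take apart microtubules. One branch of the family works in cell division, where its members push spindle poles apart, move and align chromosomes, shorten microtubule ends and build the midzone at which the daughter cells part. Another branch carries vesicles, mitochondria, endosomes and ciliary components through the cytoplasm, and its members are made in resting as well as in dividing cells. Transcripts of many division kinesins are known to peak in G2 and mitosis, under repressor and activator complexes that bind promoter elements called CHR (cell cycle genes homology region) and CCAAT box.

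The kinesin genes were taken as all gene symbols in the count files that begin with KIF followed by a digit or the letter C, which gave 44 of 26364 symbols. Of these, 38 had 10 or more counts in at least 3 libraries, 37 of them motor genes and 1 an antisense gene, KIF9-AS1. By textbook role the 37 fall into 12 mitotic kinesins, 14 transport kinesins and 11 others. The 6 symbols under the limit were KIF2B, KIF4B, KIF17, KIF19, KIF25 and KIF25-AS1, with at most 4 counts in any library. Of the 38, 37 reached 10 counts in all 6 libraries, so that neither group alone brought them in. KIF6 met the limit with 1 control and 2 CDK12 libraries.

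RNA was sequenced from ZR-75-30, a human breast adenocarcinoma line with amplified ERBB2, infected with an empty pLVX control lentivirus or with pLVX-CDK12, which carries the kinase gene CDK12. Each group held 3 libraries that the series describes as biological replicates. Whether these were separate infections is not given in the sources used here, so p-values here reflect only how far these libraries differ, which may be technical. Clone, selection and time after infection are not given there either, and the control cells carry the empty vector.

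The libraries held 21178163 to 26543653 counts. Levels are given as CPM, counts relative to the TMM-scaled library total, and the limit that a count of 0 allows, 3 counts, stood at 0.112 to 0.144 CPM. The CDK12 transcript lay between 72.8 and 81.8 CPM in control libraries and between 2009 and 2240 CPM after the CDK12 virus, so every library matched its label (exact two-sided permutation p = 0.1, the smallest that 3 against 3 libraries allow). All 8 luminal epithelial markers were measured above the filter, among them EPCAM at 191 ± 6.86 CPM in controls (SD, n = 3). Of these 8, 4 fell and 0 rose by edgeR (1 at an unadjusted p of 0.05, and 0 with DESeq2 or limma-voom), and their summed level was 13564 to 14199 CPM in controls and 11911 to 12462 CPM with CDK12. The 4 that fell were ERBB2, KRT8, KRT18 and GATA3, with log2 fold changes of -0.23, -0.20, -0.17 and -0.13. Of 9 fibroblast, leukocyte and endothelial markers 6 were too low to test, CD3E, DCN and PDGFRB among them at under 0.1 CPM, and the 9 summed to 51.4 to 56.4 CPM in controls and 62.4 to 73.7 CPM with CDK12, most of it COL1A1. On that list COL1A1 rose (log2 fold change 0.40) and the leukocyte marker PTPRC fell from 2.96 ± 0.11 to 0.358 ± 0.061 CPM (log2 fold change -3.02, edgeR adjusted p = 4.5e-11), while VWF did not pass. The part of either marker list in the results below was not tested. Over all genes tested, 35.1% passed an adjusted p of 0.05 (edgeR quasi-likelihood test, Benjamini-Hochberg), 16.2% higher and 18.9% lower with CDK12. Higher genes made up 46.1% of those calls with TMM, 59.6% with upper-quartile factors and 61.7% with total counts.

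CHR letters were frequent in the promoters of the mitotic kinesins. RefSeq promoter windows on GRCh38.p14, from 250 bases before to 50 bases after a gene's start, matched 34 of the 42 motor gene symbols; KIF5A, KIF13B, KIF19, KIF21B, KIF26B, KIF27, KIFC2 and KIFC3 had no entry. They were searched on both strands for CHR letters, TTTGAA or TTCGAA, and for CCAAT. The letters TTCGAA read the same on either strand and were counted once, none of these motifs contains another, and a gene with several windows counted if any of them held the motif. CHR letters stood in 11 of 14 mitotic kinesin promoters, 1 of 11 transport kinesin promoters and 1 of 9 others, against 19.5% of all 27305 genes in the table. CCAAT was found in 11 of the 14 mitotic, 4 of the 11 transport and 3 of the 9 other promoters, against 39.7% of all genes. The 14 include KIF2B and KIF4B, which were under the count limit, and KIF4B is a copy of KIF4A. Of the 12 mitotic kinesins measured, 10 held CHR letters and 10 held CCAAT. Among tested genes with a window the shares were 15.6% and 42.8%. Within 100 bases before the start or in the 50 after it, CHR letters were found in the same 11 mitotic promoters, in 0 of the 11 transport promoters and in 9.1% of all genes. A match describes letters, and no binding was measured here.

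The 5 promoters below are shown because they span the range of the results, each 5′ to 3′ on the gene's strand with CHR and CCAAT letters (or their reverse complement) in capitals. KIF23 and KIF18B fell most among the mitotic members, KIF4A fell less, KIF11 has both motifs and did not pass the test, and KIF1C, which fell most among the transport kinesins, holds neither.
KIF23 (chr15:69414099-69414398, plus strand): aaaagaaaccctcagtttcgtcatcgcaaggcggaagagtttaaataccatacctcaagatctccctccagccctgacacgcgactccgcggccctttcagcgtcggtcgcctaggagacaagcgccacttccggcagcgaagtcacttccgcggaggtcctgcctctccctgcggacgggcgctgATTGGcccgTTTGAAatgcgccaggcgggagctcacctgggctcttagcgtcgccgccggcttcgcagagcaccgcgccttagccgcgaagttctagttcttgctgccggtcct
KIF18B (chr17:44947724-44948023, minus strand): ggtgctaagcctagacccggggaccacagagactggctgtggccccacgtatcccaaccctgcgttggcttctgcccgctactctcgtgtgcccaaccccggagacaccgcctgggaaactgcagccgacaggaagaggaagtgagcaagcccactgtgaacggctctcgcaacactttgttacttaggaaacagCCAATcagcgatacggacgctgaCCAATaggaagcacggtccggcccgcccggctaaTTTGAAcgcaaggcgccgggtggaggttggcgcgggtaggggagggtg
KIF4A (chrX:70289854-70290153, plus strand): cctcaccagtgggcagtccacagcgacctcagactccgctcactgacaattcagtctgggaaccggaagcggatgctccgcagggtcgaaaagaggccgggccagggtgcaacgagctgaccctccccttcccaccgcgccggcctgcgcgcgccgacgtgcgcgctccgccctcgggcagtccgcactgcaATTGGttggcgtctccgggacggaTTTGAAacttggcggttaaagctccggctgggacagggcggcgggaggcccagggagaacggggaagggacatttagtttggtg
KIF11 (chr10:92592880-92593179, plus strand): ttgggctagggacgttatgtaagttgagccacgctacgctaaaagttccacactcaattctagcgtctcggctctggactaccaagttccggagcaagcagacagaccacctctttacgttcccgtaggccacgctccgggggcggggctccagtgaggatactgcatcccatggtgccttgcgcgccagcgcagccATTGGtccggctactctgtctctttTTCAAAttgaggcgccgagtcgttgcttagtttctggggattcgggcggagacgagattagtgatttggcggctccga
KIF1C (chr17:4997700-4997999, plus strand): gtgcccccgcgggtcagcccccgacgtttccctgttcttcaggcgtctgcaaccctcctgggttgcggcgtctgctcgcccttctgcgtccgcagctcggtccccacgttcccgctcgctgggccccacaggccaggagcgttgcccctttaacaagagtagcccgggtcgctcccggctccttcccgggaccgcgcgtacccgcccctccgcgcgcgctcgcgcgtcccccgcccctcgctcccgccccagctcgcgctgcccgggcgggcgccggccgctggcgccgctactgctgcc
Counting the start base as 0, the CHR letters of KIF23 begin at -55 and its CCAAT match at -64. In KIF18B the CHR letters begin at 2 and the CCAAT matches at -55 and -32. In KIF4A the CHR letters begin at -34 and the CCAAT match at -58, and in KIF11 at -28 and -53.

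Mitotic kinesin transcripts were lower in the cells given the CDK12 virus, by modest amounts and with exceptions. Of the 12 measured, 8 fell (KIF4A, KIF14, KIF15, KIF18B, KIF20A, KIF22, KIF23 and KIFC1), 0 rose and 4 did not pass the test (KIF2C, KIF11, KIF18A and KIF20B). The share lower stands against 18.9% of all genes tested. None rose at an unadjusted p of 0.05 in the edgeR test either, nor at the adjusted threshold with DESeq2 or limma-voom. The median log2 fold change was -0.24, against 0.00 over all genes tested, and the values ran from -0.48 for KIF18B to 0.09 for KIF2C. In 9 of the 12 genes the 2 groups' libraries did not overlap, all 9 lower with CDK12, against 45.6% of all genes without overlap in either direction. The count of 0 rises depends on the grouping. KIF2A, which acts at spindle poles and on axon branches, was placed with the other kinesins and passed as higher (log2 fold change 0.13, edgeR adjusted p = 0.045). In bulk RNA, fewer cells in division and less RNA per dividing cell cannot be told apart.

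**Figure D1:**
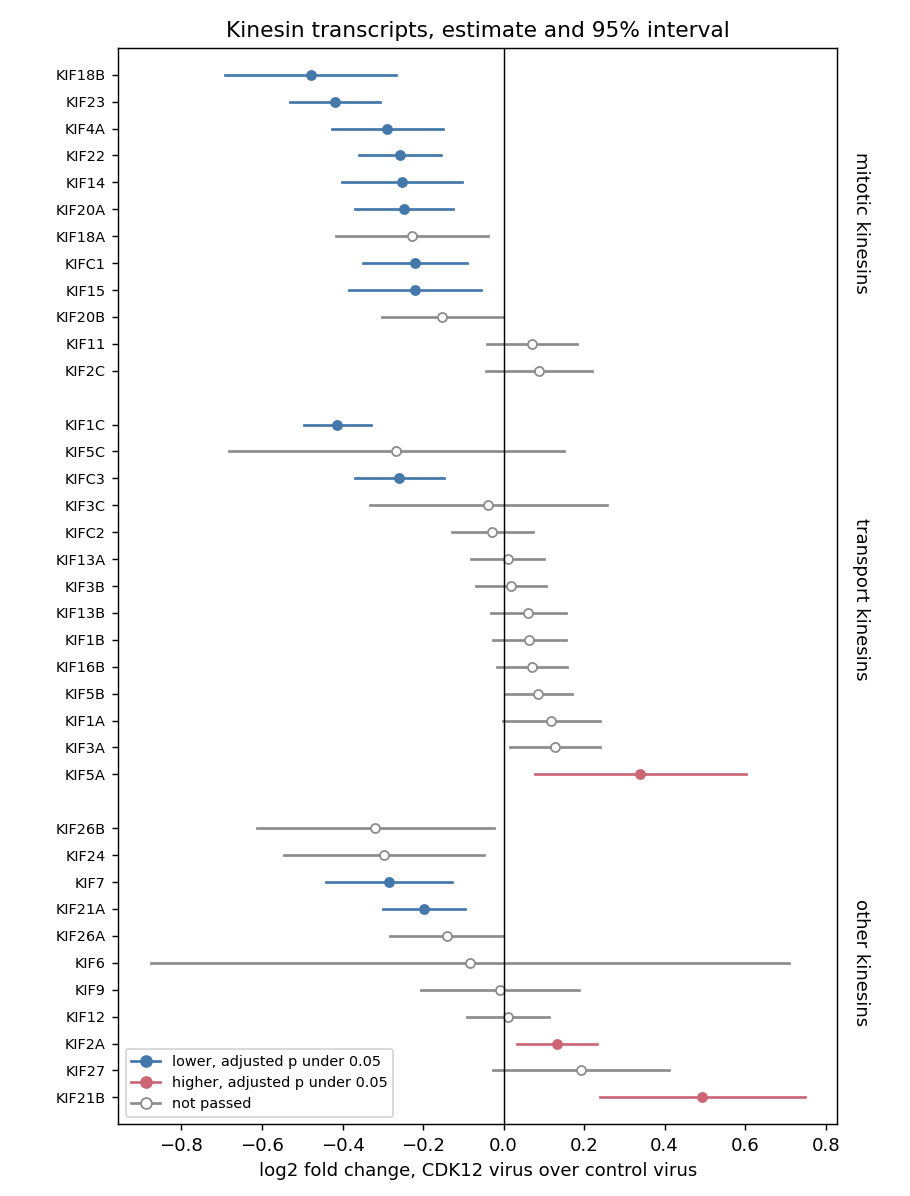
Log2 fold change of each tested kinesin motor gene, CDK12 virus over control virus (x axis), by role, with its 95% interval. The interval is a normal quantile times the edgeR standard error on either side (n = 3 libraries per group). Filled points passed an adjusted p of 0.05; 8 of 12 mitotic kinesins lie to the left of 0 and filled, while 11 of 14 transport kinesins are open points.

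The kinesins of the central spindle and cytokinesis were among those that fell. KIF23, which forms the centralspindlin complex with RACGAP1, was at 40.2, 42.6 and 41.4 CPM in the controls and at 32.0, 29.8 and 31.1 CPM in the CDK12 libraries. Its highest CDK12 library lay well below its lowest control, and its level was 25.1% lower, from 41.4 ± 1.24 to 31.0 ± 1.08 CPM (SD, n = 3), a change of -0.42 on the log2 scale (SE 0.06; adjusted p = 1.9e-06 by edgeR's quasi-likelihood test with Benjamini-Hochberg adjustment). KIF20A, which brings Aurora B to the central spindle, was at 29.9, 30.0 and 30.4 CPM against 25.7, 26.6 and 23.9 CPM. The controls were nearly alike and all lay above the CDK12 libraries, for a log2 fold change of -0.25 (edgeR adjusted p = 0.0027). KIF14, which works with citron kinase in cytokinesis, stood at 18.7, 19.9 and 18.4 CPM in controls and 17.1, 16.4 and 14.2 CPM with CDK12. The third CDK12 library was the lowest; the log2 fold change was -0.25 (edgeR adjusted p = 0.011), and without that library -0.18 (edgeR adjusted p = 0.08), where the gene did not pass. KIF20B, a midbody kinesin, had 23.4, 23.4 and 18.8 CPM in controls and 19.3, 20.3 and 19.3 CPM with CDK12. The third control lay below all CDK12 values, and the gene did not pass (log2 fold change -0.15, edgeR adjusted p = 0.12); without that control it passed, at -0.25 (edgeR adjusted p = 0.014).

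Kinesins that act on chromosome arms also fell. KIF4A, a chromokinesin that also binds the midzone protein PRC1, was at 22.2, 25.0 and 24.4 CPM in controls and 20.5, 19.8 and 18.1 CPM with CDK12. The groups did not overlap, and the log2 fold change was -0.29 (SE 0.07; edgeR adjusted p = 0.002). KIF22, which pushes chromosome arms away from the poles, was at 47.9, 48.3 and 49.3 CPM against 40.9, 40.0 and 40.9 CPM. Both groups were tight and lay apart, with a log2 fold change of -0.26 (SE 0.05; edgeR adjusted p = 0.00037). KIF22 shares 13.01% of its exon length with an antisense gene in GENCODE 29, and KIFC1 shares 12.7% with a pseudogene on the opposite strand. The counts of KIF4B, a copy of KIF4A, were 0 to 2 per library, and how reads that match both were treated is not given in the sources used here.

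The microtubule-shortening kinesins on the mitotic list did not move alike. The depolymerases KIF2A, which passed as higher, and KIF24, which did not pass, are described with the other kinesins below. KIF18B, which trims astral microtubules together with KIF2C, was at 6.59, 7.34 and 7.265 CPM in controls and 5.315, 4.61 and 5.25 CPM with CDK12. All CDK12 libraries were lower than all controls; the level was 28.3% lower, the largest fall among the kinesins tested in the 6-library fit (log2 fold change -0.48, SE 0.11; edgeR adjusted p = 0.0011). KIF2C, the depolymerase that corrects faulty kinetochore attachments, was at 19.4, 21.1 and 20.9 CPM against 22.2, 22.0 and 21.1 CPM. Its groups overlapped, and the log2 fold change of 0.09 had a 95% interval from -0.04 to 0.22 (edgeR adjusted p = 0.33). KIF18A, which damps chromosome movement at the metaphase plate, was at 9.36, 10.2 and 8.85 CPM in controls and 7.32, 8.53 and 8.42 CPM with CDK12. Its groups were apart, but narrowly, and it did not pass (log2 fold change -0.23, edgeR adjusted p = 0.066).

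**Figure D2:**
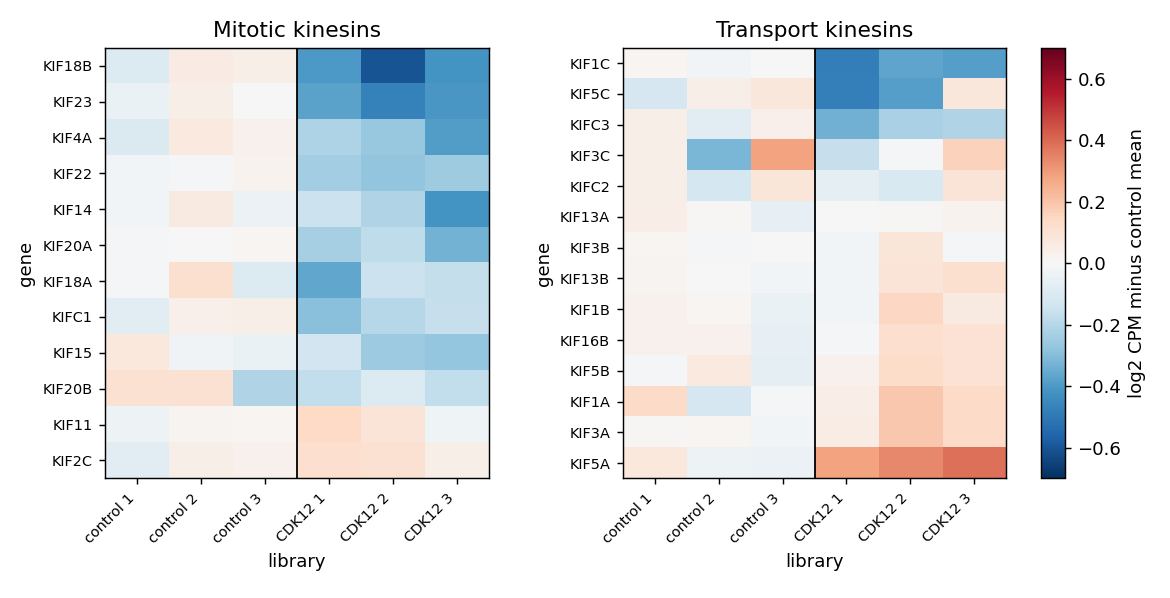
Log2 CPM of each tested mitotic (left) and transport (right) kinesin in each of the 6 libraries (columns), less the gene's mean in the 3 controls; blue is lower and red higher. The CDK12 columns are blue for most mitotic genes apart from KIF11 and KIF2C, and pale or pink for most transport genes apart from KIF1C, KIFC3 and KIF5C.

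The motors that build the bipolar spindle were split as well. KIF11, which slides antiparallel microtubules to separate the poles, was at 39.4, 40.8 and 40.8 CPM in controls and 44.4, 43.0 and 39.5 CPM with CDK12. The third CDK12 library lay among the controls, and the log2 fold change was 0.07 with a 95% interval from -0.04 to 0.18 (edgeR adjusted p = 0.36), so a fall of the size seen in KIF23 lies outside it. KIF15, which can stand in for KIF11 in keeping the poles apart, was at 12.9, 11.99 and 11.8 CPM against 11.1, 10.2 and 10.1 CPM. The groups did not overlap, and it passed narrowly (log2 fold change -0.22, edgeR adjusted p = 0.042), but in only 5 of 14 alternative analyses, with adjusted p-values from 0.028 to 0.16. KIFC1, the minus-end-directed motor that focuses spindle poles and clusters extra centrosomes, was at 23.5, 25.3 and 25.5 CPM in controls and 20.2, 21.5 and 22.1 CPM with CDK12. All CDK12 values were lower, with a log2 fold change of -0.22 (edgeR adjusted p = 0.011); without the third control (adjusted p = 0.055) or the first CDK12 library (0.051) it did not pass.

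Both motifs were found among the mitotic kinesins that fell and among those that did not pass. CHR letters were found in 7 of the 8 that fell, KIF20A being the one without, and in 3 of the 4 others, KIF2C being the one without. CCAAT was found in 7 of the 8 and in 3 of the 4.

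**Figure D3:**
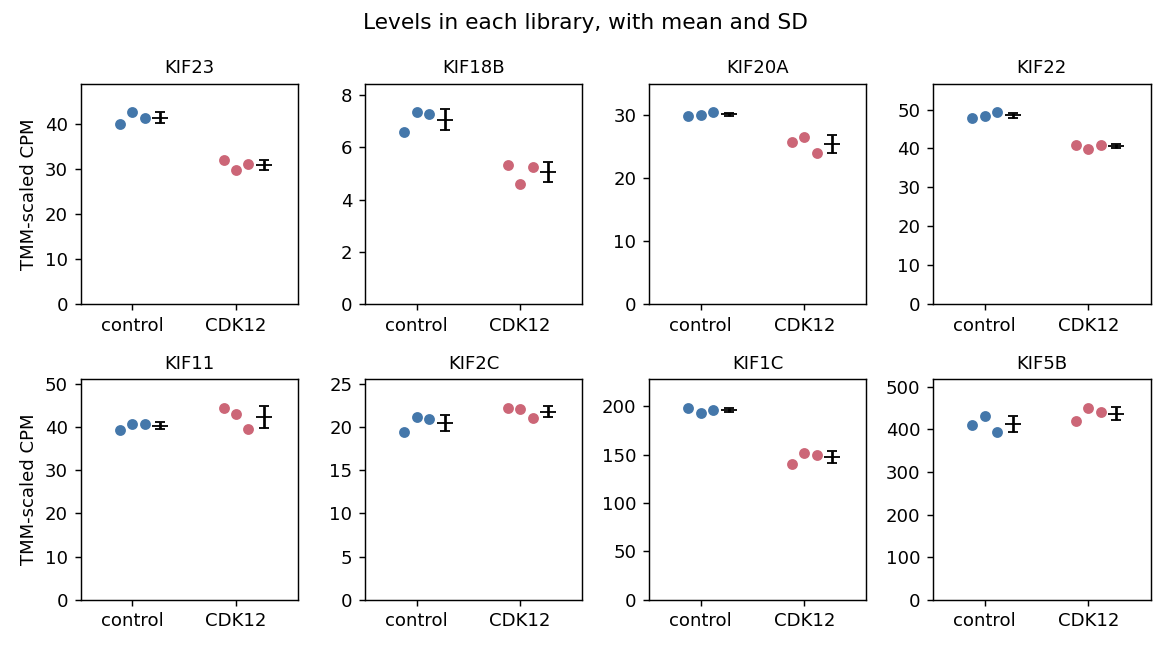
TMM-scaled CPM (y axis, from 0) of 8 kinesin genes in each control (blue) and CDK12 (red) library, with the mean and SD of 3 libraries in black. KIF23, KIF18B, KIF20A, KIF22 and KIF1C lie lower in all 3 CDK12 libraries, while the groups of KIF11, KIF2C and KIF5B overlap.

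Transport kinesins moved little, apart from 2 clear falls. Of 14 measured, 2 fell (KIF1C and KIFC3), 1 rose (KIF5A) and 11 did not pass, so 21.4% were called against 35.1% of all genes. The median log2 fold change was 0.04, with values from -0.41 for KIF1C to 0.34 for KIF5A, and 9 were above 0. That median was 0.08 with upper-quartile factors or total counts, 0.07 without the first CDK12 library and 0.02 without the second. With upper-quartile factors 4 transport kinesins passed as higher and with total counts 5, while 0 did with the DESeq2 Wald test or limma-voom. The 2 falls passed under every scaling and test tried. The median of the mitotic group was 0.28 log2 units below that of the transport group, a difference that a change of scaling does not alter. No test was made of the groups against each other.

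KIF1C, a motor for integrin-bearing vesicles and other long-range cargo, was at 198, 194 and 197 CPM in controls and 140, 152 and 150 CPM with CDK12. The groups lay far apart: KIF1C fell by 0.41 on the log2 scale (SE 0.04; edgeR adjusted p = 1.4e-08), with means of 196 ± 2.29 and 147 ± 6.28 CPM (SD, n = 3) and the smallest p-value among the kinesins. Its close relative KIF1B, which carries mitochondria and synaptic vesicle precursors, had 105 to 111 CPM in controls and 107 to 120 CPM with CDK12 and did not pass (log2 fold change 0.06, 95% interval -0.03 to 0.15). KIF1A, known best from axons, had 36.9 to 44.1 and 41.5 to 45.7 CPM (log2 fold change 0.12, edgeR adjusted p = 0.14); without the first control it passed at 0.19 (edgeR adjusted p = 0.031), and without the second the value was 0.06. With all 6 libraries KIF1A passed under upper-quartile factors (0.16, edgeR adjusted p = 0.049) and total counts (0.16, edgeR adjusted p = 0.041). KIFC3, a minus-end-directed motor found at adherens junctions, was at 48.9, 44.9 and 48.6 CPM against 37.6, 40.5 and 41.02 CPM. All CDK12 libraries were lower than all controls, with a log2 fold change of -0.26 (SE 0.06; edgeR adjusted p = 0.00071).

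The heavy chains of conventional kinesin differed in level and in their tests. KIF5B, the heavy chain found in most tissues, was at 410, 432 and 394 CPM in controls and 421, 450 and 441 CPM with CDK12. The groups overlapped and it did not pass (log2 fold change 0.09, 95% interval 0.00 to 0.17, edgeR adjusted p = 0.11), though without the first CDK12 library it did (0.12, edgeR adjusted p = 0.032). With all 6 libraries KIF5B passed under upper-quartile factors (0.12, edgeR adjusted p = 0.023) and total counts (0.13, edgeR adjusted p = 0.018). KIF5A, a heavy chain best known from neurons, was at 3.21, 2.97 and 2.96 CPM against 3.72, 3.87 and 4.002 CPM, with 62 to 100 counts per library. The groups did not overlap, but the rise passed narrowly (log2 fold change 0.34, SE 0.13; edgeR adjusted p = 0.049) and held in only 4 of 14 alternative analyses. KIF5C, the other neuronal heavy chain, was at 1.41 to 1.62 CPM in controls and 1.08 to 1.63 CPM with CDK12 and did not pass.

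The motors of cilia and endosomes on the transport list did not pass with all 6 libraries and TMM scaling. KIF3A and KIF3B, which pair to drive transport into cilia, had log2 fold changes of 0.13 (edgeR adjusted p = 0.082) and 0.02 (0.78). Without the first CDK12 library KIF3A passed (0.17, edgeR adjusted p = 0.037), as did KIF16B (0.11, edgeR adjusted p = 0.048). With all 6 libraries KIF3A passed under upper-quartile factors (0.16, edgeR adjusted p = 0.025) and total counts (0.17, edgeR adjusted p = 0.021). Total counts also let KIF16B pass (0.11, edgeR adjusted p = 0.045). KIF16B, an early endosome motor, was at 157, 157 and 147 CPM in controls and 153, 167 and 164 CPM with CDK12, with overlap. KIFC2 was at 213, 190 and 219 CPM against 198, 193 and 221 CPM, a log2 fold change of -0.03 with a 95% interval from -0.13 to 0.07; it shares 17.8% of its exon length with FOXH1 on the opposite strand. KIF13A and KIF13B had log2 fold changes of 0.01 and 0.06, and KIF3C, at 2.78 to 4.26 CPM, had -0.04.

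Levels were compared between genes per kilobase of exon, with the union of exons in GENCODE 29. The annotation used for counting on hg19 is not given in the sources used here, so these lengths may differ from those counted. KIF5B was highest, at 70.1 CPM per kb in controls, then KIFC2 at 46.7, KIF1C at 22.9, KIF16B at 19.9, KIF12 at 18.4 and KIF3B at 17.0. The highest mitotic kinesins were KIF22 at 11.2, KIF11 at 8.30, KIF20A at 7.61 and KIFC1 at 7.40 CPM per kb. With CDK12, KIF1C was at 17.2 and KIF3B at 17.3 CPM per kb, so that their values, 22.9 and 17.0 in controls, came level. As a share of all kinesin counts, which needs no scaling between libraries, the mitotic genes made up 14.4%, 15.1% and 15.01% in controls and 14.0%, 13.2% and 12.8% with CDK12. The shares did not overlap between the groups, though 14.4% and 14.0% lay close.

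Of the 11 remaining kinesins, 2 fell, 2 rose and 7 did not pass, which at 36.4% called is near the 35.1% of all genes. KIF7, a regulator of hedgehog signalling at the tip of the primary cilium, was at 16.0, 14.7 and 14.0 CPM in controls and 11.9, 11.9 and 12.9 CPM with CDK12. All CDK12 values were lower (log2 fold change -0.28, edgeR adjusted p = 0.0067), but without the first control it did not pass (adjusted p = 0.056). KIF7 shares 11.8% of its exon length with TICRR, a replication gene on the opposite strand.

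The relatives KIF21A and KIF21B, which restrain microtubule growth, went in opposite directions. KIF21A was at 97.1, 101 and 89.5 CPM in controls and 81.2, 89.6 and 79.7 CPM with CDK12. The groups overlapped slightly, and the gene fell with a log2 fold change of -0.20 (SE 0.05; edgeR adjusted p = 0.0037). KIF21B was at 3.12, 3.50 and 3.21 CPM against 4.42, 4.41 and 5.002 CPM, without overlap and at 71 to 120 counts per library. It rose 1.41-fold (log2 fold change 0.49, SE 0.13; edgeR adjusted p = 0.0039), the largest rise among the motor genes.

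KIF2A, a depolymerase of spindle poles and of axon branches, was at 49.3, 48.5 and 48.5 CPM in controls and 55.8, 52.1 and 52.5 CPM with CDK12. It rose by a small amount (log2 fold change 0.13, edgeR adjusted p = 0.045), which passed in 7 of 14 alternative analyses. Among those that did not pass, KIF12 was at 57.6, 55.9 and 53.9 CPM in controls and 54.4, 54.7 and 59.5 CPM with CDK12. KIF26A was at 19.7, 17.5 and 18.2 CPM against 16.5, 16.5 and 17.3 CPM, and KIF9 at 6.72, 7.58 and 6.74 CPM against 6.99, 6.84 and 7.05 CPM. The groups overlapped for KIF12 and KIF9 and lay narrowly apart for KIF26A. KIF24, a depolymerase at the mother centriole, had a log2 fold change of -0.30 (edgeR adjusted p = 0.068). It passed without the second control (-0.36, edgeR adjusted p = 0.049) or the second CDK12 library (-0.38, 0.045), and stood at -0.17 without the third control. It was the one kinesin in this group whose promoter window held CHR letters. KIF26B, at 2.55 to 3.87 CPM, had a log2 fold change of -0.32 (edgeR adjusted p = 0.099) and KIF27, at 4.56 to 5.87 CPM, one of 0.19 (0.19); KIF26B passed without the third CDK12 library (-0.44, edgeR adjusted p = 0.044). KIF6 had 5 to 12 counts per library, and its interval from -0.88 to 0.71 shows that no difference of ordinary size was detectable at this depth.

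KIF9-AS1, the antisense gene, was at 1.49, 1.295 and 1.502 CPM in controls and 2.30, 2.595 and 2.54 CPM with CDK12, from 27 to 63 counts per library. The groups did not overlap, and it rose 1.72-fold (log2 fold change 0.78, SE 0.18; edgeR adjusted p = 0.001). KIF9 itself had a log2 fold change of -0.01 with a 95% interval from -0.20 to 0.19. The genes share 870 bases of exon on opposite strands, 17.8% of KIF9-AS1, and the strand setting of the counting is not given in the sources used here.

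Genes that work with the mitotic kinesins were also lower. Of 27 spindle partners, 15 fell, 1 rose (CKAP2) and 11 missed the threshold; the median change was -0.18 on the log2 scale. The 59.3% called stand against 35.1% of all genes called, and 18.9% of all genes were lower. ASPM, a spindle pole protein, fell from 73.2 ± 5.30 to 57.5 ± 2.72 CPM, ANLN, the cytokinetic ring protein anillin, from 75.6 ± 2.78 to 61.0 ± 3.34 CPM, and ECT2, which KIF23 and RACGAP1 bring to the midzone, from 142 ± 2.90 to 119 ± 6.91 CPM. RACGAP1 itself did not pass (log2 fold change -0.10, edgeR adjusted p = 0.15), nor did CENPE, the kinetochore kinesin whose symbol falls outside the KIF names (-0.09, edgeR adjusted p = 0.31). CKAP2, a spindle protein, passed at 0.15 on the log2 scale. It did not pass by DESeq2 (adjusted p = 0.057), nor by edgeR when the first control (adjusted p = 0.074), the third control (0.13) or the second CDK12 library (0.17) was left out. CHR letters were found in 16 of the 23 spindle partners that have a promoter window.

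Proliferation markers moved with the mitotic kinesins. Of 10 chosen, 8 fell and 0 rose, while TOP2A and PCNA missed the threshold, so 80% were called against 35.1% of all genes. Their median change was -0.24 on the log2 scale, and 0 rose at an unadjusted p of 0.05 by edgeR or at the adjusted threshold with DESeq2 or limma-voom. MKI67 fell from 133 ± 8.56 to 110 ± 6.28 CPM and CDC20 from 26.9 ± 1.08 to 21.0 ± 0.52 CPM. Their summed level was 529 to 552 CPM in controls and 472 to 477 CPM with CDK12, and that of the mitotic kinesins 293 to 306 and 254 to 266 CPM. The part of the share of dividing cells in the kinesin result was not tested. Of 15 transcription factors of mitotic genes, 4 fell and 1, NFYB, rose; the 33.3% called are near the 35.1% of all genes, and the list's median log2 fold change was 0.01. MYBL2 and FOXM1, activators of G2 and mitosis genes, had changes of -0.37 and -0.28 on the log2 scale, and E2F1 and E2F4 of -0.44 and -0.25, all 4 past the threshold. The subunits LIN9, LIN37, LIN52 and LIN54 of the complex that binds CHR did not pass. NFYB, a subunit of the CCAAT-binding factor, had a log2 fold change of 0.18 and did not pass without the first control (edgeR adjusted p = 0.11).

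**Figure D4:**
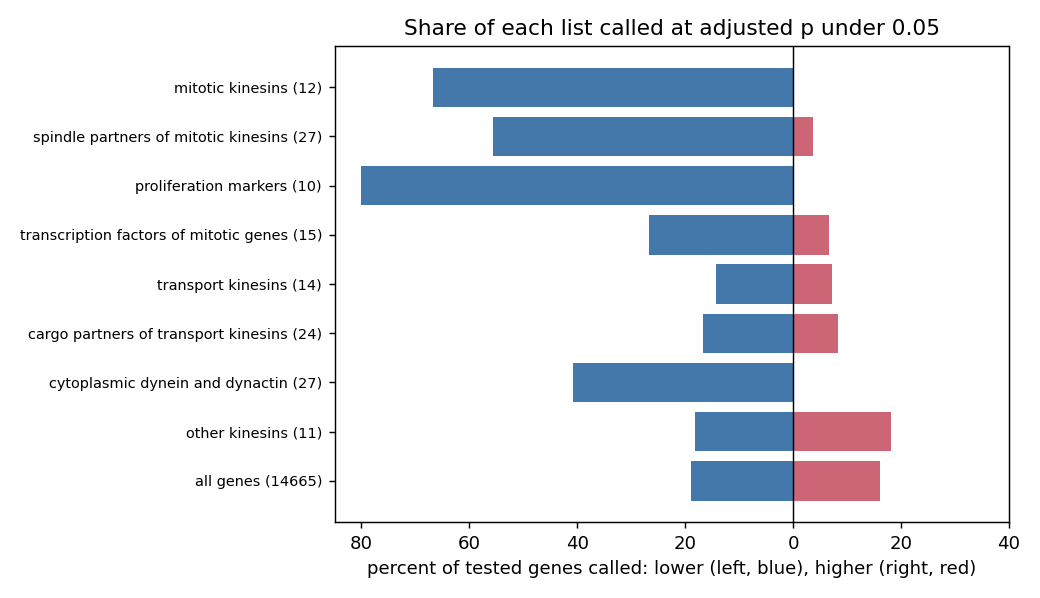
Percent of the tested genes of each list (number in brackets) that passed an adjusted p of 0.05 as lower (left, blue) or higher (right, red) with CDK12. Mitotic kinesins (66.7% called), spindle partners and proliferation markers extend far to the left of the bar for all genes, and transport kinesins (21.4%) do not.

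The cargo partners of the transport kinesins went both ways. Of 24 tested, 4 fell, 2 rose and 18 did not pass, or 25% called against 35.1% of all genes; 2 fell with upper-quartile factors or total counts, or without the first control or the second or the third CDK12 library. TRAK1, which links mitochondria to KIF5 motors, rose from 106 ± 1.62 to 123 ± 5.48 CPM. KIFAP3, the cargo-binding subunit of KIF3 motors, fell with a log2 fold change of -0.15 and passed in 7 of 14 alternative analyses. FEZ2 fell from 23.2 ± 1.01 to 18.6 ± 0.26 CPM and MAP7D2 from 1.203 ± 0.29 to 0.543 ± 0.15 CPM. The light chains KLC1, KLC2, KLC3 and KLC4 did not pass, with log2 fold changes from -0.11 to 0.04.

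Cytoplasmic dynein, the motor that walks the other way, and its cofactor dynactin had members that fell. The list also holds adaptors and regulators of dynein (BICD, HOOK and NDE family genes and PAFAH1B1). BICD1 and NDE1 from that part were among the genes that fell. Of 27 tested, 11 fell, 0 rose and 16 did not pass, or 40.7% called, all lower, where 35.1% of all genes were called and 18.9% of all genes were lower. With total counts or without the third CDK12 library 7 fell. At an unadjusted p of 0.05 by edgeR 0 rose, as at the adjusted threshold with DESeq2 and limma-voom. DCTN1, the large dynactin subunit, fell from 232 ± 1.04 to 191 ± 5.32 CPM, and DCTN3, ACTR1B and ACTR1A, also of dynactin, had log2 fold changes of -0.31, -0.27 and -0.19. The median of the list was -0.06.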

How the data were processed

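Polyadenylated RNA of 6 libraries was sequenced with a strand-marking kit, per the labels' protocols. The deposited files hold raw counts per gene symbol, whole numbers per the file values. The submitters' processing notes name CASAVA 1.8, STAR 2.6.0c, featureCounts from Subread 1.6.2 and the build hg19; not given in the sources used here are its annotation, strand setting and treatment of multi-mapped reads.

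Genes were filtered with filterByExpr of edgeR 4.0.16 (minimum count 10, minimum total count 15), leaving 14665, scaled by TMM and compared by edgeR's two-sided quasi-likelihood test on group alone, with a Benjamini-Hochberg adjusted p of 0.05 over the whole table as the threshold. A standard error is the log2 fold change over the square root of F. The 95% intervals use a normal quantile of that error and are narrower than the test implies. The interval of KIF5B starts above 0, at 0.0035, though its unadjusted edgeR p was 0.051. Same-numbered libraries did not pair. No library was a copy of another: replicates differed beyond sampling noise.

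The members and lists were chosen with earlier results of these data known, so lists get counts and medians and no test. Per-library values are given for called members and the 3 highest-count uncalled members of each role, and group means or changes for up to 4 and 2 called partners of each list by direction; others named were picked after their values were seen. Alternatives were other scalings, other filters, DESeq2 1.42.0, limma-voom (limma 3.58.1), a replicate block and each library left out; they were also run on the partner and marker lists, a choice made after seeing the data. Promoter windows are from RefSeq on GRCh38.p14 and exon lengths from GENCODE 29 on GRCh38. The values of 2 called cargo partners are not reported here.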

Additional observations from a re-analysis of the deposited data

How the results depend on the processing

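Of the 15 called kinesin motor genes, 9 passed in all 14 alternatives, namely KIF1C, KIF4A, KIF18B, KIF20A, KIF21A, KIF21B, KIF22, KIF23 and KIFC3, and all 15 kept their sign. Mitotic kinesins, KIF2A not counted among them, were lower in 6 to 8 cases and higher in 0 under every alternative. Rises depended on the analysis: all kinesins had 3 higher, against 6 with upper-quartile factors, 7 with total counts and 1 without a filter or with the DESeq2 Wald test (1 to 4 when each library was left out). Transport kinesins had 1 higher, against 4 and 5 with those scalings and 0 without a filter, with DESeq2 Wald, with limma-voom or with the replicate block (0 to 3 with each library left out). The other kinesins had 1 higher without a filter or with DESeq2 Wald, and, with each library left out, 1 to 2 higher and 1 to 3 lower. The mitotic median was -0.20 with upper-quartile factors and -0.19 with total counts. The lists of partners and markers were recomputed in the same way, chosen after seeing the data: cargo partners had 2 lower with both scalings (2 to 4 with each library left out), spindle partners 0 higher with DESeq2 Wald (0 to 1), the transcription factors 2 higher with both scalings (0 to 1 with each library left out), dynein and dynactin 7 lower with total counts (7 to 11), luminal markers 1 higher with both scalings (0 to 1) and markers of other cell types 2 lower without a filter (1 to 2). The replicate number as a block left 8 mitotic kinesins lower and 0 higher; deviations of same-numbered libraries correlated at -0.07, 0.06 and 0.03, so the numbers pair nothing. The causes were not tested. Members under about 100 counts per library, such as KIF3C, KIF5A and KIF5C, have wide intervals.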

Other observations

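Ratios of raw counts within a library need no scaling and show how members of the same role list moved against each other. These pairs were chosen after their values were seen and were not tested. KIF23 had 1.019, 1.045 and 1.017 counts per KIF11 count in controls and 0.720, 0.693 and 0.788 with CDK12. KIF15 had 0.327, 0.294 and 0.290 per KIF11 count against 0.250, 0.238 and 0.256, and KIF18B 0.339, 0.348 and 0.347 per KIF2C count against 0.240, 0.209 and 0.250. KIF1C had 1.79, 1.78 and 1.88 per KIF1B count against 1.31, 1.27 and 1.33. KIF23 had 1.344, 1.420 and 1.363 per KIF20A count against 1.246, 1.122 and 1.304, and KIFC3 had 0.230, 0.236 and 0.222 per KIFC2 count against 0.190, 0.210 and 0.186. KIF5A went the other way, with 0.00782, 0.00689 and 0.00752 per KIF5B count against 0.00883, 0.00860 and 0.00908. Of the 7 pairs computed, the CDK12 libraries lay below the controls in 6 and above them in KIF5A to KIF5B, with no overlap in any. Most pairs set a called member over an uncalled one, so the lack of overlap follows in part from the choice.

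Gene length was set beside the changes as a description. Across the 37 motor genes, Spearman's rho between the gene span in GENCODE 29 and the log2 fold change was 0.10, a description over genes that share the same 6 libraries. The median span was 48.1 kb for mitotic and 81.1 kb for transport kinesins, and the rho within these groups was 0.13 (12 genes) and 0.03 (14 genes). For the other kinesins the median span was 59.0 kb and the rho -0.22 (11 genes).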
